A study of Mus musculus with 4 samples.

Results

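The beta-defensin genes on the arrays were followed in mouse thymic epithelial cells (TECs) after induced loss of the homeobox transcription factor Meis1. The members are 10 genes, Defb1, Defb3, Defb5, Defb6, Defb7, Defb14, Defb15, Defb19, Defb41 and Defb42, taken as all non-control probes whose gene name, or whose RefSeq accession under its current symbol, is one of them. They had 12 probes among the 41174 on the arrays and gave 10 of the 16819 features tested. Meis1-CKO mice carried K14-CreERT2 and were Meis1fl/fl, and control mice, labelled WT, carried K14-CreERT2 and were Meis1fl/+. Mice of both genotypes were 3 weeks old and were given 1 mg of tamoxifen daily for 3 days, and 4 days after it their CD45- EpCAM+ thymic cells were sorted by flow cytometry. There were 2 pools for each genotype, each of 6 mice, and the labelled cDNA of a pool, amplified from 10 ng of RNA, went onto 1 single-colour array. Cre was driven by the keratin 14 promoter, which is active in only some TECs, so cells of other TEC types in the pools may keep Meis1. The controls had the recombinase, the drug and 1 floxed allele, so a difference between the groups is one between 2 floxed alleles and 1.

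Beta-defensins are short, positively charged secreted peptides, folded around conserved cysteines joined by disulfide bonds, that damage microbial membranes and attract immune cells. They are made at skin, airway and gut surfaces, and a large set of them is restricted to the epididymis and testis. In the thymus, medullary TECs transcribe many genes that are otherwise restricted to single tissues, under regulators such as Aire, so that developing T cells are screened against their products.

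All 10 genes were detected in TECs, while 18 further Defb genes were mostly below background. Of the members, 8 were well above background on all 4 arrays. Defb7 and Defb41 were above background in Meis1-CKO 1 and both controls but not in Meis1-CKO 2. Of the other 18 genes, 15 were above background on no array and 3 on a single array each: Defb50 in Meis1-CKO 2, Defb35 in control 1 and Defb34 in control 2. The members were named with these detections known, so the contrast is a description. Feature Extraction, the scanner software, had replaced 45 of the 72 readings of the other 18 genes with surrogate values, but none of the members' readings. Its own error estimate for a member's spot was between 10.0% and 50.5% of the signal, and the 2 largest errors belonged to Defb41 and Defb7 in Meis1-CKO 2.

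**Figure D1:**
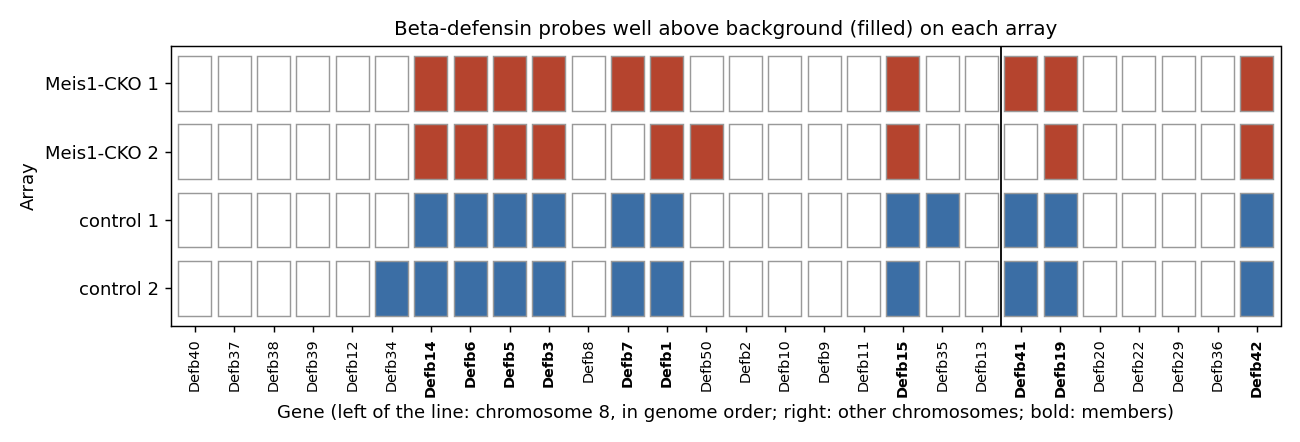
Detection of the 28 Defb genes on the arrays (columns) in each of the 4 arrays (rows); a filled cell is a gene with a probe well above background. On chromosome 8 genes stand in genome order, and a run of detected genes from Defb14 to Defb3 is followed by Defb8, which is empty, and Defb7.

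Probes of 7 of the 10 members lay on chromosome 8, as did those of 14 of the 18 other Defb genes. Of the 7 members, 5, Defb14, Defb6, Defb5, Defb3 and Defb7, stood in a stretch of 303 kb on mm9, the build of the array files. In the order of the RefSeq gene table that stretch holds 8 Defb genes, 6 of which have a probe here. The sixth, Defb8, was above background on no array, with signals of 4.59 and 5.22 in Meis1-CKO 1 and 2 and of 2.02 and 6.75 in control 1 and 2. Defb1 and Defb15 lay further along the same chromosome, Defb19 on chromosome 2, Defb41 on chromosome 1 and Defb42 on chromosome 14.

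The probes show what was measured. Beta-defensins carry a pair of adjacent cysteines near the end of the peptide, and cysteine is encoded by TGC or TGT. Of the 12 member probes, 5, each of a different gene, held 2 such codons in a row. The reading frame of the pair had no stop codon over all 60 bases. Such a pair was in 2 of the 18 probes of other Defb genes and in 2.92% of all probe sequences on the arrays. Whether a pair is the one near the end of the peptide was not checked against protein sequences. In the Defb5 probe further cysteine codons follow the pair in the same frame. The pair is in capitals:
Defb5 (chr8:19250704-19250763, plus strand): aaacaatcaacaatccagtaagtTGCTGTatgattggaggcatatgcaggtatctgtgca
Defb14 (chr8:19195152-19195211, plus strand): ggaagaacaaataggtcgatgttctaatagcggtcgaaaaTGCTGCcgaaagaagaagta
Defb15 (chr8:23040417-23040476, minus strand): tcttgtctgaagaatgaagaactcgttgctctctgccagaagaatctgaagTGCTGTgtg
Defb19 (chr2:152401935-152401994, minus strand): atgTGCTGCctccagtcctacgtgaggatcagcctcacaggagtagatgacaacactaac
Defb42 (chr14:63667172-63667231, plus strand): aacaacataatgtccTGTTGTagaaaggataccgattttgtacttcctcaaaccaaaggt

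Positions are on mm9. The longest run of identical bases that a member's probe shared with the probe of another Defb gene was between 8 and 12 bases. Binding of a probe to the transcript of a related Defb gene was not tested. The probes of Defb3 (chr8:19293364-19293423), Defb6 (chr8:19228090-19228149), Defb7 (chr8:19497669-19497728) and Defb41 (chr1:18241243-18241302, minus strand) held no such pair in an open frame. Defb1 had 2 probes that share 49 bases (chr8:22905030-22905089 and chr8:22905041-22905100), and Defb19 had 2 that share 40, so the paired probes are not independent readings.

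The arrays as a whole set the scale for what follows. Each array had 58.6% to 63.6% of its spots well above background and none saturated. Levels are log2 signals relative to the 75th percentile of the array, so that 0 is the level of that percentile and a difference of 1 is 2-fold, and they are compared between arrays, not between probes. Meis1-CKO 2 stood apart, with correlations across features of 0.856 to 0.884 with the other arrays, against 0.936 to 0.943 among the rest. Per the file headers, Meis1-CKO 1 and control 1 shared a slide and a scan (slide 1), as did Meis1-CKO 2 and control 2 (slide 2), so that each difference is also split by slide. The Meis1 probe read -0.44 and -2.08 in Meis1-CKO 1 and 2 and -0.12 and -0.91 in control 1 and 2, and since the floxed exons are not given in the sources used here, it does not check the labels. All 17 TEC markers followed, among them Epcam, Foxn1 and Krt5, were above background on all 4 arrays.

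No beta-defensin gene passed the test between genotypes. Limma called 0 of the 10 at an adjusted p under 0.05, against 0% of all 16819 features, and 0 of the 10 had an unadjusted p under 0.05, against 2.78% of features (468). With the slide as a block the calls were again 0 of the 10 and 0% of features, with 666 features at an unadjusted p under 0.05. Of the 10 genes, 8 had a log2 difference of Meis1-CKO minus control below 0 and 2 above, with a median of -0.60, where the median over all features was -0.05. The standard errors, between 0.49 and 0.92 with 2 pools in each group, were of the size of the differences. In bulk RNA of this kind, fewer cells that express a gene and less RNA per cell cannot be told apart.

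The members' lower values lay on slide 2. On slide 1, 5 of the 10 genes were lower in Meis1-CKO 1 than in control 1 and 5 were higher, close to the 49.8% of all features that were lower. None was at least 2-fold lower, against 5.91% of features, and Defb14 and Defb19 were at least 2-fold higher, against 8.55%. On slide 2, 8 of the 10 were lower in Meis1-CKO 2 than in control 2, against 56.3% of features. Of the 10, 7 were at least 2-fold lower, against 17.1% of features, and 1 was at least 2-fold higher, against 11.3%. The medians of the 10 were -0.03 on slide 1 and -1.29 on slide 2, and those of all features 0.0017 and -0.12. Without Meis1-CKO 2 the median of the 10 was -0.11. The slide 2 counts include Defb7 and Defb41, which entered the test through the control arrays and were dim in Meis1-CKO 2, so they are a description of these 2 arrays and not a test.

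**Figure D2:**
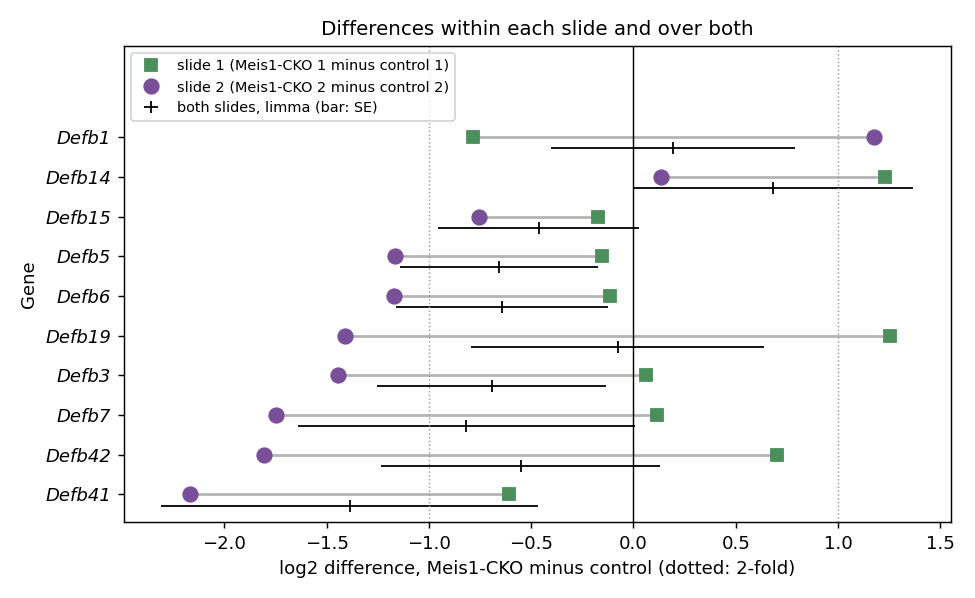
Log2 difference of Meis1-CKO minus control for each member (rows) on slide 1 (squares), on slide 2 (circles) and over both slides (black ticks, with the SE from limma as a bar; dotted lines mark 2-fold). The slide 2 circles of 8 genes lie left of 0, down to -2.17 for Defb41, while the slide 1 squares lie between -0.79 and 1.25.

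Defb3, Defb5, Defb6 and Defb7 were near 0 on slide 1 and lower in Meis1-CKO on slide 2. Defb3, an inducible defensin of airway epithelium, read 1.66 and 0.49 in Meis1-CKO 1 and 2 and 1.60 and 1.93 in control 1 and 2. Only Meis1-CKO 2 was low, and the groups overlapped, as Meis1-CKO 1 was above control 1. The log2 difference was -0.69 (SE 0.56, limma adjusted p = 1, n = 2 pools in each group). On slide 1 it was 0.06 and on slide 2 it was -1.44, where the level was 2.72-fold lower in Meis1-CKO 2. Without Meis1-CKO 2 the difference was -0.10.

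Defb6, a defensin first described in skeletal muscle, read 0.51 and -0.50 in Meis1-CKO 1 and 2 and 0.62 and 0.67 in control 1 and 2. The 2 controls differed by 0.05, and both Meis1-CKO pools were below both controls, Meis1-CKO 1 by little. The difference was -0.64 (SE 0.52, limma adjusted p = 1), with -0.11 and -1.17 on slides 1 and 2, and -0.14 without Meis1-CKO 2.

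Defb5 read -1.39 and -2.15 in Meis1-CKO 1 and 2 and -1.24 and -0.98 in control 1 and 2, again with both Meis1-CKO pools below both controls. Its difference was -0.66 (SE 0.49, limma adjusted p = 1), and the slides gave -0.15 and -1.16. Defb5 and Defb6 were the 2 of the 10 members whose groups did not overlap, and 14.4% of all features had both Meis1-CKO pools below both controls. Of the members 0 did so at 2-fold or more, against 3.95% of features. No member had both Meis1-CKO pools above both controls, which 11.1% of features had at any size and 3.35% at 2-fold or more.

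Defb7 read -2.47 in Meis1-CKO 1 and -2.58 and -3.03 in control 1 and 2. In Meis1-CKO 2 it read -4.77 and was not well above background. The difference of -0.82 (SE 0.82, limma adjusted p = 1) thus rests on 1 measured Meis1-CKO pool and 1 dim one, and the slides gave 0.11 and -1.75. Without Meis1-CKO 2 it was 0.34. Across the 4 genes the slide 1 differences were between -0.15 and 0.11 and the slide 2 differences between -1.75 and -1.16. Those of the other 6 members reached from -0.79 to 1.25 and from -2.17 to 1.18. Among these 6, Defb15 was also near 0 on slide 1 (-0.17) and lower on slide 2 (-0.75). The 4 genes were grouped with their values known, so the ranges are a description and not a test.

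**Figure D3:**
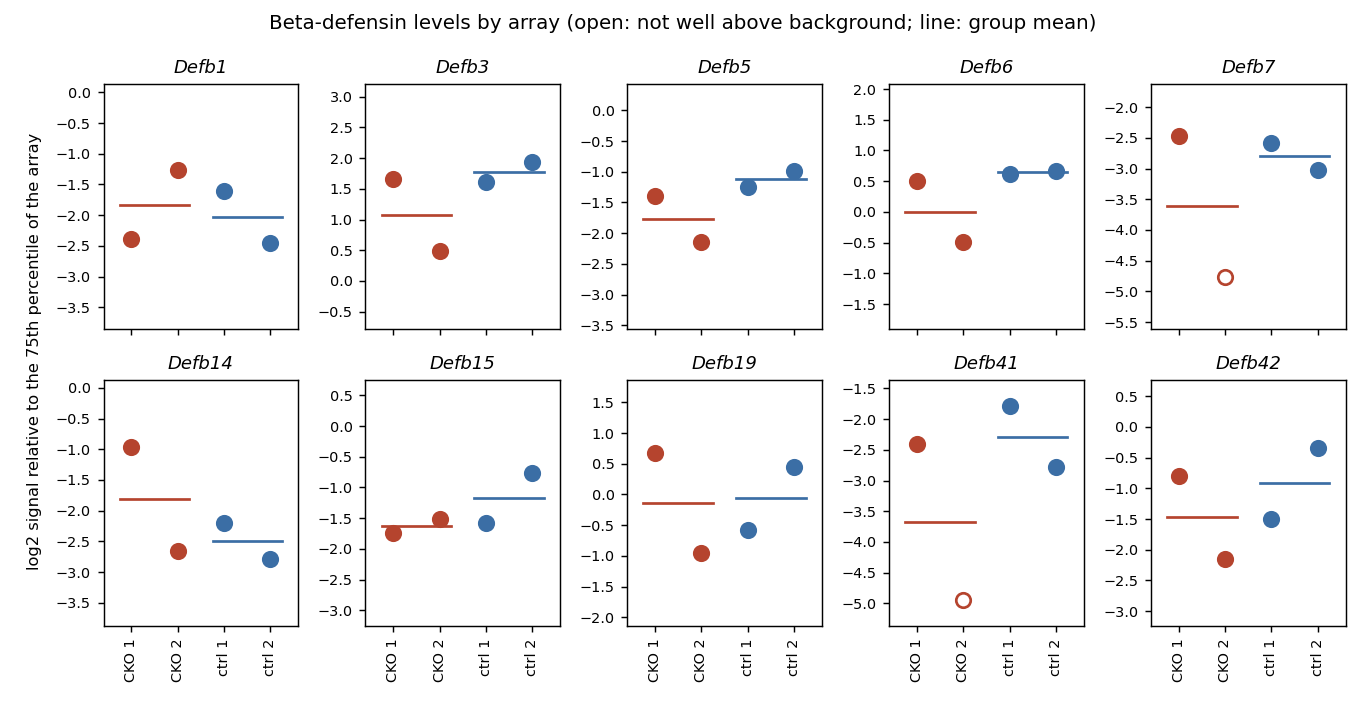
Level of each member (panels) on each array, Meis1-CKO in red and control in blue, in log2 units around the array's 75th percentile; every panel spans the same number of log2 units, bars are group means and open circles are signals not well above background. Defb3, Defb5, Defb6 and Defb7 share a low point in Meis1-CKO 2 beside 3 arrays that lie close together.

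The same 4 genes share sequence before their start sites. RefSeq promoter sequences on GRCm38.p6 were available for 7 of the 10 members. In pairwise alignments of the 250 bases before the start site, the 6 pairs among Defb3, Defb5, Defb6 and Defb7 had between 63.9% and 75.5% identical columns, against 43.0% to 47.5% for the 15 pairs that involve Defb15, Defb41 or Defb42. The sequences, all on the plus strand, are shown with every run of at least 10 bases found in all 4 in capitals:
Defb6 (chr8:19225228-19225477): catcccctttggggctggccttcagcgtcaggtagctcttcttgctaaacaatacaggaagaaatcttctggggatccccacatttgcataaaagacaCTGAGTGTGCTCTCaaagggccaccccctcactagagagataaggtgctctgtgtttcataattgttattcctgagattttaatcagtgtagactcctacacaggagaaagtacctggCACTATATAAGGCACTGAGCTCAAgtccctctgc
Defb5 (chr8:19247342-19247591): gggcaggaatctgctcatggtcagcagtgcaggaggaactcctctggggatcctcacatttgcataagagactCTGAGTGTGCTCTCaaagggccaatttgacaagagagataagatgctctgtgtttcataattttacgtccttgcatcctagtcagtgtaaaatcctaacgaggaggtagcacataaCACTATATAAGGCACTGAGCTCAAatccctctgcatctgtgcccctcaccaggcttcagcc
Defb3 (chr8:19293111-19293360): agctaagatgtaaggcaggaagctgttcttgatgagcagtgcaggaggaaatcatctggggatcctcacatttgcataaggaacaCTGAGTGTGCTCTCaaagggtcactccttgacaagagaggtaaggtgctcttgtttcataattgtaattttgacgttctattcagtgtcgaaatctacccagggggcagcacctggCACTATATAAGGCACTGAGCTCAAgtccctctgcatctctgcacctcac
Defb7 (chr8:19494847-19495096): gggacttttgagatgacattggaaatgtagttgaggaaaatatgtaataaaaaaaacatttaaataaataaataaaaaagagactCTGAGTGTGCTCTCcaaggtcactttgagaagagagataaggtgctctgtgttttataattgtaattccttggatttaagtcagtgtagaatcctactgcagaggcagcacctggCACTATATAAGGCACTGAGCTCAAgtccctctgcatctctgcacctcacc

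The longest shared run, CACTATATAAGGCACTGAGCTCAA, has 24 bases, includes TATAA, and begins 34, 61, 49 and 50 bases before the start site of Defb6, Defb5, Defb3 and Defb7. On either strand it occurred in 5 of 32851 promoter sequences, those of the 4 genes and of Defb8. Defb8 was above background on no array, so the 24 bases stand before 4 detected genes and 1 that was not detected. The comparison was made after the members' values had been seen, and what the shared sequence has to do with the levels was not tested.

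**Figure D4:**
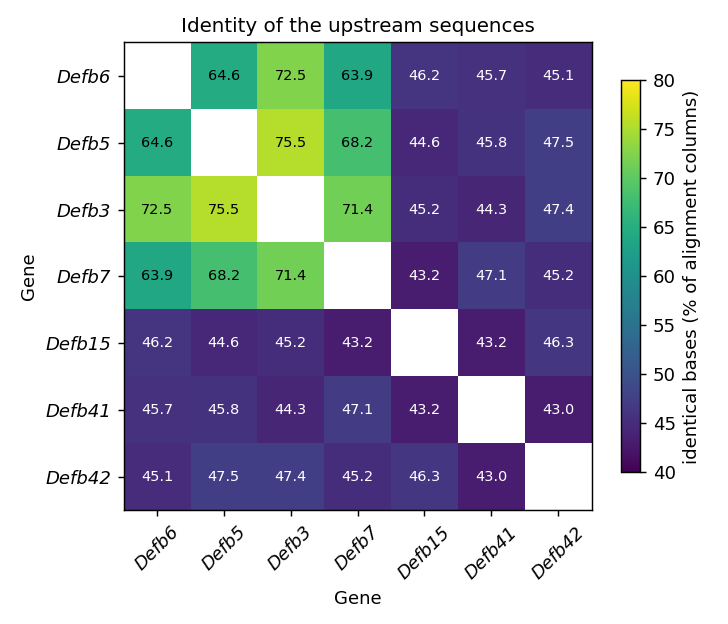
Identical bases, as percent of the columns of a pairwise alignment, between the 250 bases before the start sites of the 7 members with a RefSeq promoter sequence. The block of Defb6, Defb5, Defb3 and Defb7 lies between 63.9% and 75.5%, and all other pairs lie under 48%.

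Defb14 and Defb1, 2 further defensins of surface epithelia, had other patterns. Defb14, the mouse counterpart of the human keratinocyte defensin DEFB103, lies next to these 4 genes but was high in the other Meis1-CKO pool. It read -0.96 and -2.66 in Meis1-CKO 1 and 2 and -2.19 and -2.79 in control 1 and 2, so that Meis1-CKO 1 stood above 3 arrays that lay close together. The difference was 0.68 (SE 0.69, limma adjusted p = 1). Slide 1 gave 1.23, slide 2 gave 0.13, and the difference was -0.16 without Meis1-CKO 1.

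Defb1, which many epithelia make constitutively, read -2.39 and -1.27 in Meis1-CKO 1 and 2 and -1.61 and -2.45 in control 1 and 2. It was the 1 member that was highest in Meis1-CKO 2. The difference of 0.20 (SE 0.60, limma adjusted p = 1) was made of -0.79 on slide 1 and 1.18 on slide 2, and the overlapping second probe gave -0.70 and 1.46. Its sign turned without Meis1-CKO 2 (-0.37) and without control 2 (-0.22).

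The remaining 4 genes are known mainly from the male reproductive tract, and in them control 2 minus control 1 was 0.81 for Defb15, 1.03 for Defb19, 1.16 for Defb42 and -0.98 for Defb41. Control pools differed in other members too, by -0.84 for Defb1 and -0.60 for Defb14. Defb19, known from the testis, read 0.67 and -0.96 in Meis1-CKO 1 and 2 and -0.58 and 0.45 in control 1 and 2, with 1 high and 1 low pool in each group. The difference was -0.08 (SE 0.72, limma adjusted p = 1). Slide 1 gave 1.25 and slide 2 gave -1.41, and the second probe gave 0.06 over both slides.

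Defb42, an epididymal defensin, was likewise higher in Meis1-CKO on slide 1 and lower on slide 2, with -0.79 and -2.15 in Meis1-CKO 1 and 2 and -1.50 and -0.34 in control 1 and 2. Its difference was -0.55 (SE 0.68, limma adjusted p = 1), with 0.70 and -1.81 on slides 1 and 2, and 0.12 without Meis1-CKO 2. Over the 4 arrays, the centred profiles of Defb19 and Defb42 lay 0.52 log2 units apart, and each was the other's nearest member. Among 12598 genes, Defb42 ranked only 180th in distance from Defb19, and Defb19 222nd from Defb42.

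Defb41, another epididymal defensin, had a difference of -1.39 (SE 0.92, limma adjusted p = 1), which includes 1 dim spot and was -0.42 after normexp background correction. It read -2.40 in Meis1-CKO 1 and -1.79 and -2.78 in control 1 and 2, and -4.94 in Meis1-CKO 2, where it was not well above background. The level was lower on both slides, by -0.61 and -2.17, but Meis1-CKO 1 lay between the 2 controls, and without Meis1-CKO 2 the difference was -0.12. With the slide as a block its unadjusted p was 0.0678, the lowest of the members, and its adjusted p was 1.

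Defb15, of the male reproductive tract, varied least between the Meis1-CKO pools, at -1.75 and -1.52, and read -1.57 and -0.76 in control 1 and 2. Control 2 was the array that stood out. The difference was -0.46 (SE 0.49, limma adjusted p = 1), and the slides gave -0.17 and -0.75. Over all 10 members, Meis1-CKO 2 was the lowest array for 7, against 36.9% of all features, and control 2 was the highest for 5. The 2 Meis1-CKO pools were within 2-fold of each other for 2 members (67.2% of features) and the 2 control pools for 8 (81.2% of features).

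No gene of the wider beta-defensin system was called. CCR6 is the chemokine receptor that some beta-defensins share with the chemokine Ccl20. Of 7 genes of receptors and Ccl20, 5 were tested, 0 were called in either direction, and the median log2 difference was 0.29. Ccl20 differed by 0.24 on slide 1 and -1.15 on slide 2, Ccr6 by 0.95 and -0.37, and Tlr4 by -0.13 and 0.19.

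Of 22 genes that induce beta-defensins in epithelia, such as interleukin 17, interleukin 22 and NF-kappaB components, 18 were tested and 0 were called, with 11 above 0, 7 below and a median of 0.10. The transcription factor Stat3 differed by -0.24, the interleukin 17 receptor subunit Il17ra by 0.21 and the NF-kappaB cofactor Nfkbiz by 0.48 over both slides. Il17a, Il17f and the interleukin 22 receptor gene Il22ra1 were above background on no array.

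Other antimicrobial genes and genes of keratinized epithelium were mostly higher in Meis1-CKO on slide 1, unlike the beta-defensins with 5 of 10, and mostly lower on slide 2, where 56.3% of all features were lower. Of 29 other epithelial antimicrobial genes, 23 were tested and 0 were called. On slide 1, 17 of the 23 were higher in Meis1-CKO, and on slide 2, 17 were lower, with medians of 0.37 and -0.53. The lectin gene Reg3g differed by 0.15 and -0.84, the calprotectin subunit gene S100a9 by 0.67 and 0.42 and the peptide gene Adm by 0.10 and -1.23.

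Of 23 genes of keratinized epithelium, 21 were tested and 0 were called. On slide 1, 16 of them were higher and on slide 2, 16 were lower, with medians of 0.47 and -0.86. The filaggrin gene Flg differed by 0.76 and -1.36, Sbsn by 0.84 and 0.40 and the cornified envelope gene Sprr1a by 0.36 and -1.53. Of 21 genes known from the epididymis, 6 were tested, and 0 were called, with medians of -0.40 and -0.91. Cst8 differed by 1.71 and -1.05, Adam28 by -0.82 and 0.64 and Ly6g5b by -0.19 and -0.78. Among 8 regulators of tissue-restricted antigens, 7 were tested and 0 were called, with medians of 0.05 and -0.66. Aire differed by 0.53 and -2.22, Sirt1 by 0.02 and -1.55 and Hipk2 by -0.00034 and 0.14. Aire read 3.03 and 2.37 in Meis1-CKO 1 and 2, and control 1 lay between these pools. Control 2 stood above all of them, at 4.59, so the slide 2 difference of Aire rests largely on control 2. Sirt1 was instead low in Meis1-CKO 2, at 1.27.

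Markers of other cell types differed between the pools as well. The summed signal of the 10 beta-defensin genes, in units of the 75th percentile, was 8.52 and 4.07 in Meis1-CKO 1 and 2 and 7.36 and 9.27 in control 1 and 2. That of the 17 TEC markers was 520 and 350 in Meis1-CKO and 659 and 442 in control, and 13 of the 17 were lower in Meis1-CKO on slide 2, with medians of -0.08 on slide 1 and -0.61 on slide 2. By slide, Krt5 differed by -0.84 and -0.69, Krt18 by -0.08 and -0.70 and H2-Aa, one of the 4 that were higher on slide 2, by -0.07 and 0.69. H2-Aa, an MHC class II gene that dendritic cells also express, read 6.65 and 6.85 in Meis1-CKO 1 and 2 and 6.72 and 6.17 in control 1 and 2. The TEC sum includes it. The cortical TEC genes Psmb11 and Prss16 and the TEC transcription factor Foxn1, chosen after their values were seen, differed by -3.33, -2.56 and -1.90 on slide 2. Ctsl and Ly75, which cortical TECs also express, were among the 4 that were higher on slide 2, at 0.02 and 1.25. The 12 thymocyte markers on the arrays summed to 6.19 and 41.1 in Meis1-CKO and 50.9 and 18.9 in control, with Rag2 above background on no array. Within that list Dntt differed by -3.40 on slide 1 and -0.0054 on slide 2, Cd3e by -3.97 and 2.01 and Cd8a by -1.12 and 3.61.

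Of the 14 myeloid and dendritic cell markers, 13 were on the arrays, and they summed to 8.39 and 38.0 in Meis1-CKO and 9.46 and 10.3 in control, with Adgre1 at -0.78 and -0.11, Xcr1 at -0.46 and 1.24 and Itgam at 0.93 and 0.55 by slide. Meis1-CKO 2 had the highest myeloid sum of the 4 arrays and the lowest beta-defensin, TEC, fibroblast and erythroid sums. The 8 fibroblast markers summed to 12.3 and 3.00 in Meis1-CKO and 12.1 and 6.86 in control. All 6 tested, among them Dcn, Pdgfrb and Col1a1 at -0.0096, -1.79 and -1.51, were lower on slide 2. Of the 6, Col3a1 and Postn were dim in Meis1-CKO 2 and entered the test through the control arrays. The 6 erythroid markers summed to 5.69 and 2.36 in Meis1-CKO and 9.96 and 4.04 in control, with Klf1 above background on no array and with Hbb-bt, Slc4a1 and Hba-a1 at -0.73, -0.37 and -1.39 on slide 2. The 11 neutrophil granule genes summed to 64.9 and 64.2 in Meis1-CKO and 42.5 and 48.1 in control, with Elane, Prtn3 and Ctsg above background on no array. Most of each sum was S100a9, which is also in the antimicrobial list. Its log2 levels were 5.59 and 5.61 in Meis1-CKO 1 and 2 and 4.91 and 5.19 in control 1 and 2. Over both slides S100a9 and S100a8 differed by 0.55 and 0.14 and Mpo by -0.35. Of the 8 neutrophil genes tested, 0 were called and 6 had a difference above 0, with a median of 0.76. Over all features, 54.6% had a difference below 0. Of the 8, 4 had both Meis1-CKO pools above both controls, against 11.1% of features. Mmp8, among these 4, and Retnlg were dim in control 2, at -3.54 and -3.60. They entered the test through the Meis1-CKO arrays, so these counts are a description and not a test. The part of these differences between pools in the beta-defensin values was not tested.

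**Figure D5:**
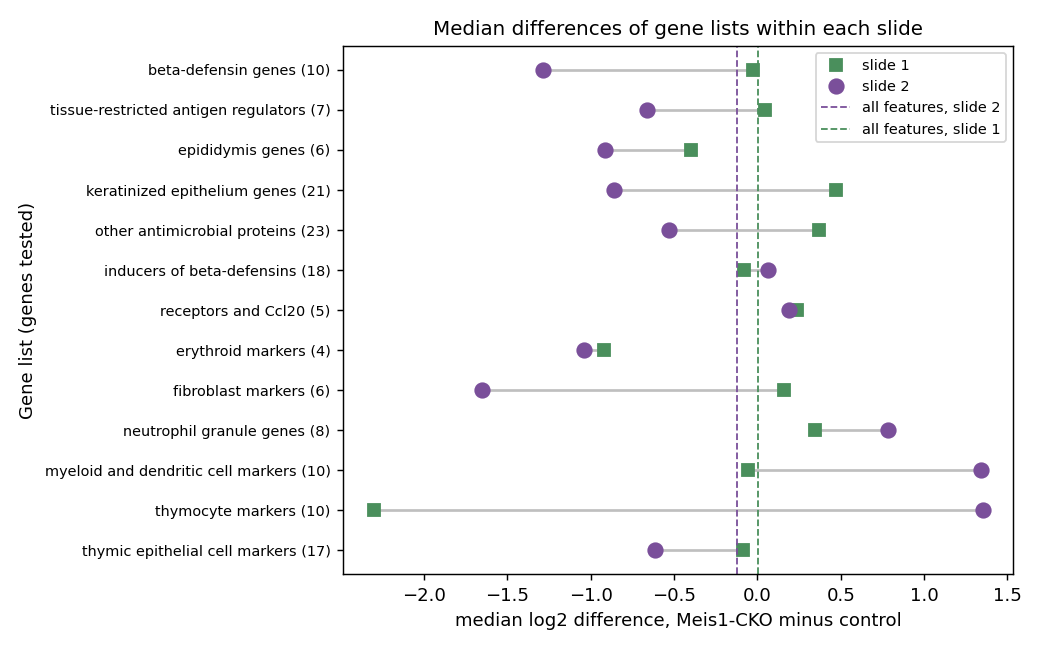
Median log2 difference of Meis1-CKO minus control over the tested genes of each list (rows, with the number tested) on slide 1 (squares) and slide 2 (circles); dashed lines are the medians over all features. The beta-defensin median is -0.03 on slide 1 and -1.29 on slide 2, and the keratinized epithelium median 0.47 and -0.86. The thymocyte and myeloid medians lie above 1 on slide 2. The myeloid median includes Itgax, Flt3 and C1qc, which were dim in control 1 and entered the test through the Meis1-CKO arrays, so it is a description.

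The genes with the most similar profiles were found by the distance between profiles over the 4 arrays, each centred on its own mean, among 12598 genes well above background on all 4. Only 4 arrays leave many genes close to any profile, so the names are a description of these arrays. Nearest to Defb3 were Klk1b9 (distance 0.03 log2 units), Gcsh and Angptl1, and its nearest member, Defb6 (0.24), ranked 86th. Nearest to Defb6 were Lonrf1 (0.05), Ttll12 and Bmp3, and nearest to Defb5 were Slc7a1 (0.06), Cdk16 and 1700088E04Rik. Defb5 and Defb6 lay 0.23 apart, at ranks of 100 and 104 from each other.

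Nearest to Defb14 were Arl2 (0.09), Slc9a4 and Dkk2, nearest to Defb1 were Lrrfip1 (0.12), 2310022A10Rik and Abracl, and nearest to Defb15 were Borcs5 (0.06), Adam21 and Pcdhac2. For these 3 members the nearest other beta-defensin was at a distance of 1.38, 1.48 and 0.82. Nearest to Defb19 were Nefh (0.12), Smo and Dcpp2, and among the nearest to Defb42 were Aspm (0.13) and Cyp2d26.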

How the data were processed

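The deposited scanner files hold linear spot intensity values which, per the file headers, Agilent Feature Extraction 9.5.3.1 had background-subtracted and detrended within each array, with surrogates for low values and no scaling between arrays. The authors' deposited value table is in log2 units, and no source used here states how it was made. Over 20818 probes, its differences had a slope of 1 against the scaled scanner values, its rows were centred on their medians, and its column medians were -0.06 and -0.12 for Meis1-CKO 1 and 2 and 0.04 and 0.09 for control 1 and 2, so that scale, centring and direction were settled.

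Signals were taken as log2 minus each array's 75th percentile, without 1639 control spots and between 63 and 78 outlier spots an array. A probe entered the test if both arrays of at least 1 group read it well above background, and the probe with the highest mean stood for its gene. A gene could thus enter through 1 group while dim in the other, and counts and medians of the lists include such genes. Current symbols were assigned by RefSeq accession for 26690 probes and through an older symbol for 952. Groups were compared with limma 3.58.1 in R 4.3.3, adjusting p over all features by Benjamini-Hochberg, and the script was tested on simulated data. The number of arrays limits the precision, and nothing ties replicates to animals beyond the pools. Members, gene lists and comparisons were chosen with earlier results of these data known. Named were the members, the 3 genes of each list with the highest mean level and the 3 nearest profiles of each member detected on all arrays, of which some are not reported here. Upstream sequences are from RefSeq (GRCm38.p6) and were aligned with Biopython 1.88.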

Additional observations from a re-analysis of the deposited data

How the results depend on the processing

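Under the alternatives, 0 members were called, and 0 features were called except without Meis1-CKO 1, where limma called 325 (204 higher and 121 lower), with the remaining Meis1-CKO array assumed to vary as the controls do. Leaving out 1 array in turn thus gave 0 to 325 features and 0 members, and the lowest adjusted p of a member was 0.0905, for Defb41 without Meis1-CKO 1. With the replicate number, which coincides with the slide, as a block, 0 features and 0 members were called. The deviations of same-numbered arrays had a correlation of 0.13. Of 70 member values under another scaling, background correction, filter, block, probe or the authors' table, 69 kept their sign, the exception being the second Defb19 probe (0.065). Leaving out 1 array turned the sign of 5 genes, with ranges of -0.37 to 0.76 for Defb1, -1.97 to 0.34 for Defb7, -0.16 to 1.53 for Defb14, -0.89 to 0.74 for Defb19 and -1.23 to 0.12 for Defb42. The cause was not tested. The median of the members ran from -1.09 without Meis1-CKO 1 to -0.11 without Meis1-CKO 2, and was -0.28 after normexp background correction, which adds an offset of 50 to signals of this size. Defb7 and Defb41 gave no value where all 4 arrays had to be above background.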

Other observations

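Short motifs were searched on both strands of the 250 bases before the start sites of the 7 members with a RefSeq promoter sequence. TATAA stood in those of Defb3, Defb5, Defb6, Defb7 and Defb15 and in 22.8% of all 32851 promoter sequences, and in Defb3, Defb5 and Defb6 it lay within the 24 shared bases, as did 1 of the matches of Defb7. TGACAG, a core motif of MEIS proteins, stood in 0 of the 7 and in 15.9% of all. TGATTNAT, a motif of PBX and HOX proteins, stood in that of Defb42 and in 2.82% of all. TTCNNNGAA, a STAT motif, stood in that of Defb41 and in 7.02% of all. TGANTCA, the AP-1 motif (6.75% of all), a single NF-kappaB pattern (1.41%), and CACGTG, a single form of the E-box (6.02%), stood in none of the 7. Other forms of the NF-kappaB motif and of the E-box were not searched, so their absence is not shown. All counts given are matches of letters in this window only.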
